A study of Sus scrofa with 32 samples.

Results

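Solute carriers are membrane proteins that move small molecules such as amino acids, sugars, bile acids, metal ions, nucleosides and metabolites across the plasma membrane or the membranes of organelles. Their symbols begin with SLC followed by a family number, and the SLC25 family holds the carriers of the mitochondrial inner membrane. In the ileum, absorptive enterocytes are known for pairing carriers of the brush border with carriers of the basolateral membrane, so that a nutrient or bile acid is taken from the lumen and passed on to the blood. Lymphocytes that grow or secrete antibody rely on other carriers, which bring in amino acids, move lactate and nucleosides, and feed nucleotide sugars and ATP to the secretory pathway.

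Among 25880 genes in the count matrices, 339 symbols began with SLC and a digit, and 212 of them held at least 50 UMIs (unique molecular identifiers, each standing for 1 captured transcript molecule) summed over the ileal cells that passed quality filters. These 212 are the members described here. Of the other 127 symbols, 38 had no UMI in those cells. Members were chosen by this summed level, and the rule used no comparison between cell types. SLC46A2 (58 UMIs), SLC26A3 (52) and SLC17A8 (50) lay just inside the minimum, whereas SLC25A21 (48), SLC2A2 (48) and SLC52A3 (44) lay just outside. A symbol is not always a carrier, and SLC2A4RG, SLC4A1AP, SLC7A6OS, SLC9A3R1 and SLC9A3R2 are other proteins whose names match the pattern. The members ranged from 50 to 231177 UMIs with a median of 649.5, and together they took 0.4973% of the UMIs of the filtered ileal cells. The 32 SLC25 members held 60.654% of all member UMIs.

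scRNA-seq was carried out on ileum of 2 mixed-breed pigs at an age of 7 weeks, each dissected into a region with Peyer's patches (PP), a region without them (non-PP) and whole ileum, and on peripheral blood mononuclear cells (PBMC) of the same animals. Epithelial, lamina propria and submucosal cells of an ileal piece went into 1 suspension, and live lymphocytes were then favoured in its preparation, so that epithelial and myeloid cells are those that passed through a preparation aimed at lymphocytes. Pig 1 was labelled female and pig 2 male, and no animal was treated. The 8 libraries kept 3770 to 7700 cells each and 21134542 to 40111934 UMIs in total.

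Cells were assigned by fixed marker thresholds (gates). The ileal epithelial gate held 613 cells (45 to 232 per library), the T gate 14247, the B gate 11638, the plasma cell gate 244 and the myeloid gate 174. Within the B gate, 4738 cells were cycling and 844 resting. Markers that no gate used followed the names of 3 gates. KRT20, a keratin of differentiated enterocytes, was at 1840 and 1523 CPM (counts per 1e6 UMIs, here without scaling) in the epithelial sums of pigs 1 and 2, CD2 was at 740.5 and 824.7 in the T sums, and MZB1, a chaperone of antibody assembly, at 3430 and 2979 in the plasma cell sums. Markers of other gates were present at levels below those of their own gate. In the ileal B gate, 4 B markers summed to 648.4 and 605.6 CPM. There, 5 T markers summed to 371 and 470.1, against 2651 and 2895 in the T gate. The summed level of 4 myeloid markers was 30290 and 42230 in the myeloid gate and 3596 and 3398 in the epithelial gate, where FTL, a ferritin chain found in every gate, held 3045 and 2953 of it and CST3 was at 264.2 and 234.1. All 7 epithelial markers had UMIs in the ileal T gate, where they summed to 66.22 and 25.96 against 5981 and 4106 in the epithelial gate.

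A pair of libraries needs care. In the library labelled whole ileum of pig 1, Y-linked genes had 206.8 CPM without scaling, whereas the other ileal libraries of pig 1 had 0.1292 and 0.2242 and those of pig 2 had 185.5 to 225.7 over the ileum. Pig 1 was labelled female, so this level goes against the label of the library. Which animal it came from was not tested, and it was kept in the sums of pig 1. An ileal value of pig 1, or a statement about both pigs, may therefore include cells of another animal. The non-PP library of pig 1 stood apart in epithelial levels. Counts are therefore also given without each of the pair. The gates were spread unevenly over the dissections. The non-PP libraries of pigs 1 and 2 held 16 and 34 B cells, against 1529 to 3975 in the other ileal libraries. They held 3 and 5 plasma cells, against 25 to 90, and 3068 and 3152 T cells, against 1629 to 2614. Differences between gates therefore also carry the dissection, and the parts of the 2 cannot be told apart here. Between 21 and 79 cell barcodes were shared by any 2 libraries.

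Throughout, a level is counts per 1e6 UMIs (CPM) of a gate's summed counts after TMM scaling unless said otherwise, given for pig 1 and then pig 2. UMIs were counted at transcript ends and carry no length correction, and levels are compared only within a gene. A difference is the log2 difference fitted by edgeR's quasi-likelihood test on the sums per pig, and a member was called when its Benjamini-Hochberg adjusted p over all genes was below 0.05 and the log2 difference exceeded 1. An SE (standard error) is not given by that test and was taken as the size of a difference divided by the square root of the test's F statistic. With 2 animals, the p-values of the fits on sums per pig measure the spread between these 2 pigs. Every gate of a fit adds to its estimate of that spread, also gates outside the comparison. In the alternative fits on sums per library, over both pigs or 1, the libraries of a pig served as replicates. Calls from the libraries of 1 animal therefore do not measure the spread between animals. The fits without pig 2 include the whole ileum library labelled pig 1. The 5 comparisons of 1 ileal gate with the mean of the other 4 share all 10 sums and are not independent of each other. Of the 212 members, 192 had counts high enough to be tested there, some of them only because of the gate in which they were high. Where 1 or more of the other gates held no UMI in both pigs, the difference is given as a lower bound computed with 3 UMIs over both pigs in place of each such 0.

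In the epithelial gate, 93 of the 192 tested members lay above the mean of the other gates (48.4%, against 23.8% of all genes) and 19 lay below it (9.9%, a smaller share than that of all genes), so that 112 were called in either direction (58.3%, against 36.3% of all genes). The median log2 difference of the tested members was 1.09 as fitted and 1.00 with bounds in place of fits against empty gates, and that of all genes was 0.05. Without the whole ileum library of pig 1 the counts were 91 and 20, and without the non-PP library of pig 1 they were 85 and 24 of 183. Fitted on the libraries of a single animal, 54 of 127 tested members were higher and 15 lower without pig 1, and 78 of 157 were higher and 12 lower without pig 2.

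**Figure D1:**
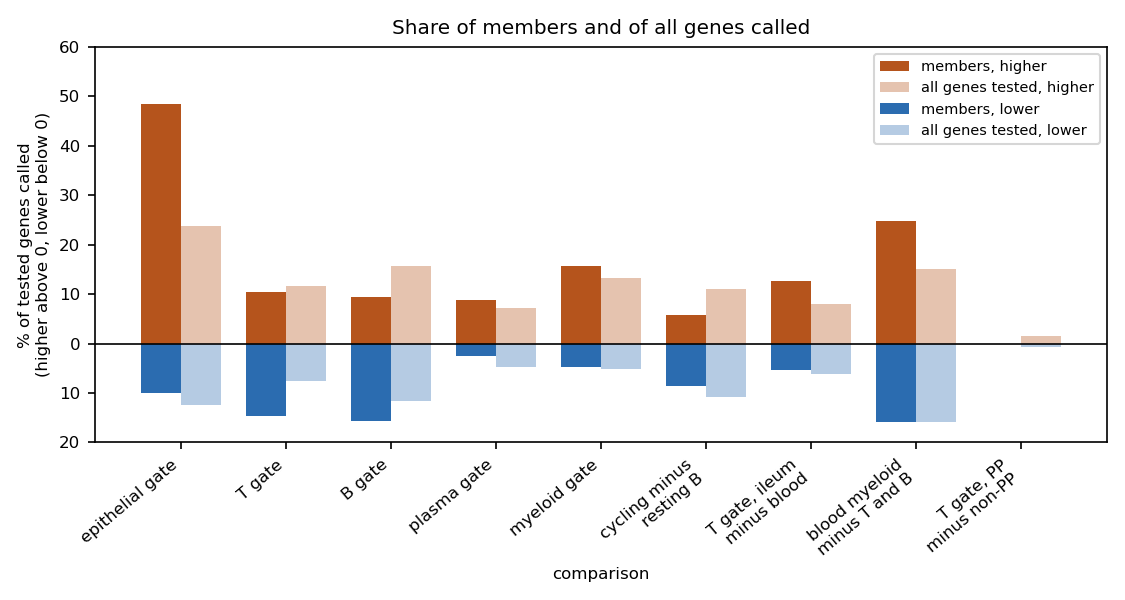
Share of tested solute carriers (dark bars) and of all tested genes (pale bars) called higher or lower in each of 9 comparisons, in percent, by edgeR's quasi-likelihood test at an adjusted p below 0.05 and a log2 difference beyond 1. In the epithelial gate 48.4% of tested members and 23.8% of all genes were higher, and no member was called between PP and non-PP T cells.

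The carriers that recover bile acids stood high in this gate in both animals. SLC51B, a subunit of the basolateral bile acid exporter (chr1:163081145-163089491, Sscrofa11.1), was at 1049 and 896.8 CPM in the epithelial gate, at 11.17 and 3.676 in the T gate and at 0 in the myeloid gate. The epithelial gate exceeded every other gate in both pigs. Against the mean of the other 4 gates, SLC51B was at least 7.86 higher on the log2 scale (adjusted p = 7.552e-08, edgeR). Its partner SLC51A (chr13:133851775-133869753) had 255.7 and 149.8 CPM, a log2 difference of 7.19 (SE 0.353, adjusted p = 4.485e-08). SLC10A2, the apical sodium-dependent importer of bile acids (chr11:71328801-71348779), was at 70.65 and 13.21 CPM, at least 5.92 higher on the log2 scale (adjusted p = 5.697e-05, edgeR). SLC51B was detected in 69.49% of the 613 epithelial cells (exact 95% interval 65.68% to 73.12%) and SLC10A2 in 18.11% (15.14% to 21.39%). In T cells the shares were 2.534% and 0.1755% at a lower depth (median 2239 to 2818 UMIs per cell over libraries, against 8312 to 13110 in the epithelial gate), and in myeloid cells SLC51B had a UMI in 0 of 174 cells, for which 3 counts allow a share of cells with a UMI of up to 1.724%.

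Of 28 members on a list of absorptive carriers, 27 were tested and 25 were higher in the epithelial gate, with a median log2 difference of 7.39 as fitted and 4.36 with bounds. Of all tested members 48.4% were higher, and of all genes 23.8%. This list and those named below were drawn up with earlier results of these data known. Their counts are a description and not a test. Among those for sugars and peptides were SLC5A1, the sodium-glucose cotransporter (chr14:48566400-48704145; 212.6 and 44.78 CPM, log2 difference 5.17), SLC2A5, a fructose transporter, and SLC15A1, the intestinal peptide transporter (15.63 and 4.405 CPM, at least 4.36 higher on the log2 scale). The amino acid carriers included SLC7A9, which takes up cystine and dibasic amino acids (chr6:42664795-42706113; 72.41 and 32.3 CPM, at least 5.79 higher), SLC1A1, a glutamate transporter (57.44 and 10.65 CPM, at least 5.80 higher) and SLC6A19, the main carrier of neutral amino acids at the brush border (44.02 and 6.24 CPM, at least 4.70 higher). The zinc importers SLC39A4 and SLC39A5 had 53.92 and 44.42 CPM (log2 difference 4.62) and 83.41 and 66.81 CPM (at least 5.74 higher). The 2 listed members that were not called were SLC11A2 (log2 difference −0.74), an importer of iron and other divalent metals, and SLC7A8 (1.40), a light chain of a neutral amino acid exchanger.

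Ion carriers off that list were also among the leading members. SLC4A4, a sodium bicarbonate cotransporter, was at 105.2 and 60.94 CPM (at least 5.89 higher on the log2 scale), SLC5A8, a monocarboxylate transporter, at 46.44 and 63.51 (at least 6.82 higher), and SLC30A10, a manganese exporter, at 44.9 and 37.81 (at least 6.04 higher). SLC12A2, the basolateral sodium-potassium-chloride cotransporter, had 57.66 and 87 CPM (log2 difference 3.37, SE 0.2004). Members were also grouped by SLC family number, with each family placed under a main substrate. In sugar families 15 of 21 tested members were higher, and in ion families 15 of 28. In metal families 10 of 25 were higher, and in amino acid families 10 of 28. For bile acids the count was 3 of 5 and for monocarboxylates 5 of 8. This grouping went by symbol alone. It did not set apart proteins such as SLC9A3R1 that are not carriers, or carriers whose substrate differs from that of their family. The shares for metals and amino acids were below that of all tested members (48.4%, against 23.8% of all genes). Among 4 peptide and histidine carriers 1 was higher and 3 were lower.

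Mitochondrial carriers showed smaller differences. Of 31 tested SLC25 members 13 were higher and none was lower in the epithelial gate, with a median log2 difference of 0.51. The share that was higher lay below that of all tested members (48.4%) and above that of all genes (23.8%). They included SLC25A1, the citrate carrier (1.90), SLC25A20, the carnitine-acylcarnitine carrier (1.20), SLC25A24, an ATP-Mg/phosphate carrier (2.47), and SLC25A5, an ADP/ATP carrier, at 803.6 and 552.5 CPM (log2 difference 1.24, SE 0.166). SLC25A6, another ADP/ATP carrier, was at 1299 and 1720 CPM and was not called (log2 difference 0.26, adjusted p = 0.164, edgeR).

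The members lower in epithelial cells included carriers that other gates held. SLC44A2, a choline transporter-like protein, was at 7.263 and 4.038 CPM in the epithelial gate, against 75.12 and 76.54 in the T gate and 104 and 106.3 in the B gate (log2 difference −3.36, SE 0.226). SLC22A17, the lipocalin-2 receptor (chr7:75734724-75741115), fell by 3.22 on the log2 scale, and SLC15A2, a peptide transporter, fell by 2.78. On a list of 12 tested carriers of growing lymphocytes, SLC29A1 (−1.66) and SLC43A3 (−2.22), which move nucleosides and purine bases, were lower, and SLC38A5 (1.33), a glutamine transporter, was higher. SLC43A3 was not called without the non-PP library of pig 1 (−1.72, adjusted p = 0.05563).

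**Figure D2:**
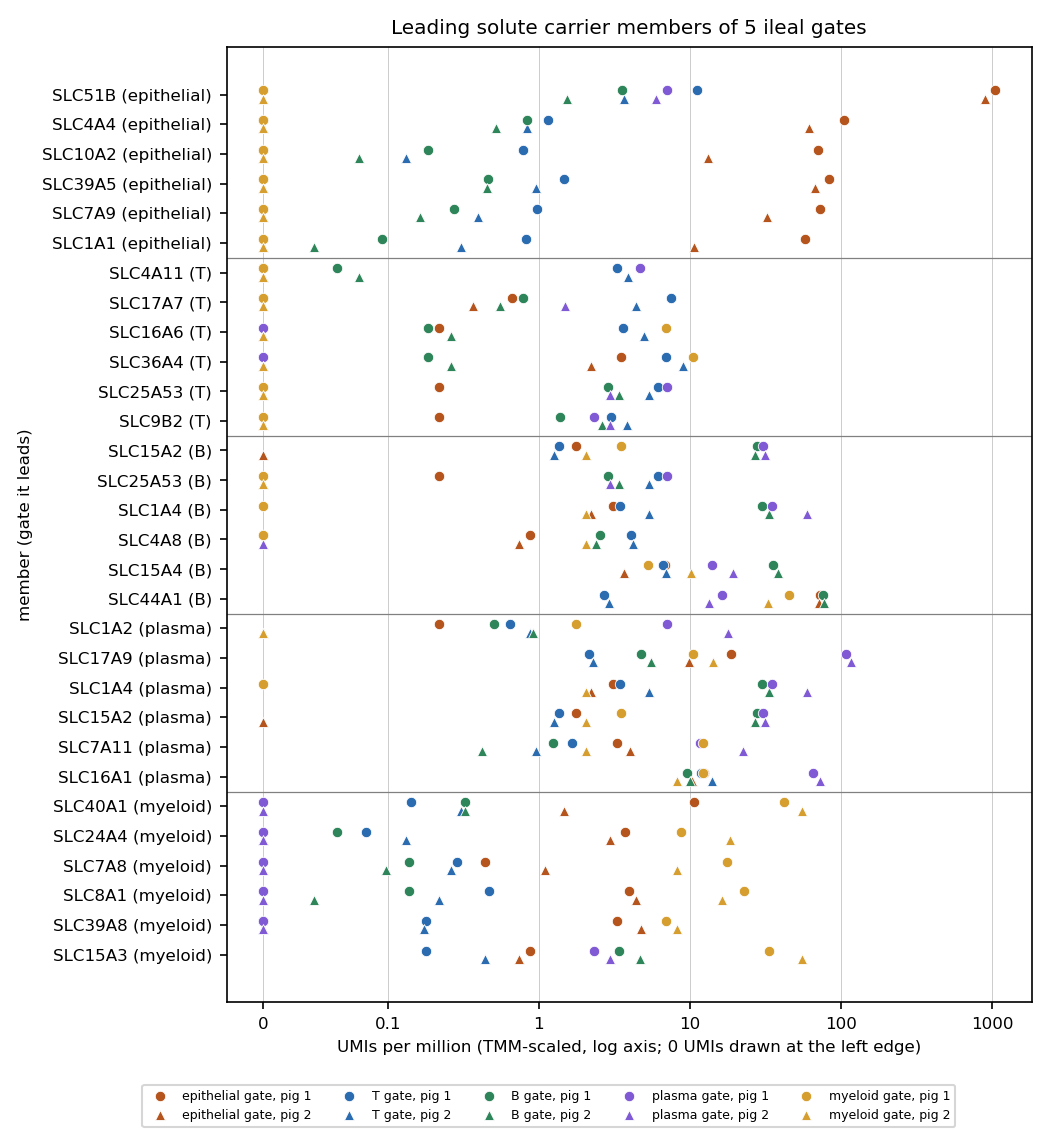
Levels of the 6 leading members of each of 5 ileal gates, as TMM-scaled CPM on a log axis, with 1 point per pig and gate. SLC51B was at 1049 and 896.8 in the epithelial gate and SLC17A9 at 107.3 and 116 in the plasma cell gate, each above the other 4 gates in both pigs.

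Epithelial levels differed among the 6 libraries, and the non-PP library of pig 1 was apart for several absorptive carriers. Before scaling, SLC10A2 was at 37.89 CPM in PP of pig 1, 15.95 in PP of pig 2, 126.5 in non-PP of pig 1, 20.91 in non-PP of pig 2, 4.953 in whole ileum of pig 1 and 11.17 in whole ileum of pig 2. SLC5A1 was likewise at 386.4 in non-PP of pig 1 and at 21.46 to 104.5 in the other 5 libraries. In both, non-PP of pig 1 lay above every other library and whole ileum of pig 1 was the lowest. FABP2, the intestinal fatty acid-binding protein of enterocytes, moved with them, at 1656 in non-PP of pig 1 against 116.9 to 355.4 elsewhere. APOA4, an apolipoprotein of enterocytes, was at 24.71 there and at 15.95 to 80.05 in the other 5 libraries, so that it did not follow the same order. SLC12A2 ran the other way, with 25.69 in non-PP of pig 1 and 82.32 to 122.8 in the others, while SLC39A4 kept to 41.27 to 70.87 in all 6. The non-PP library of pig 2 lay within the range of the PP libraries for SLC5A1 and SLC10A2, so 1 library and not both of that dissection stood apart, and what moved with FABP2 was not tested further.

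**Figure D3:**
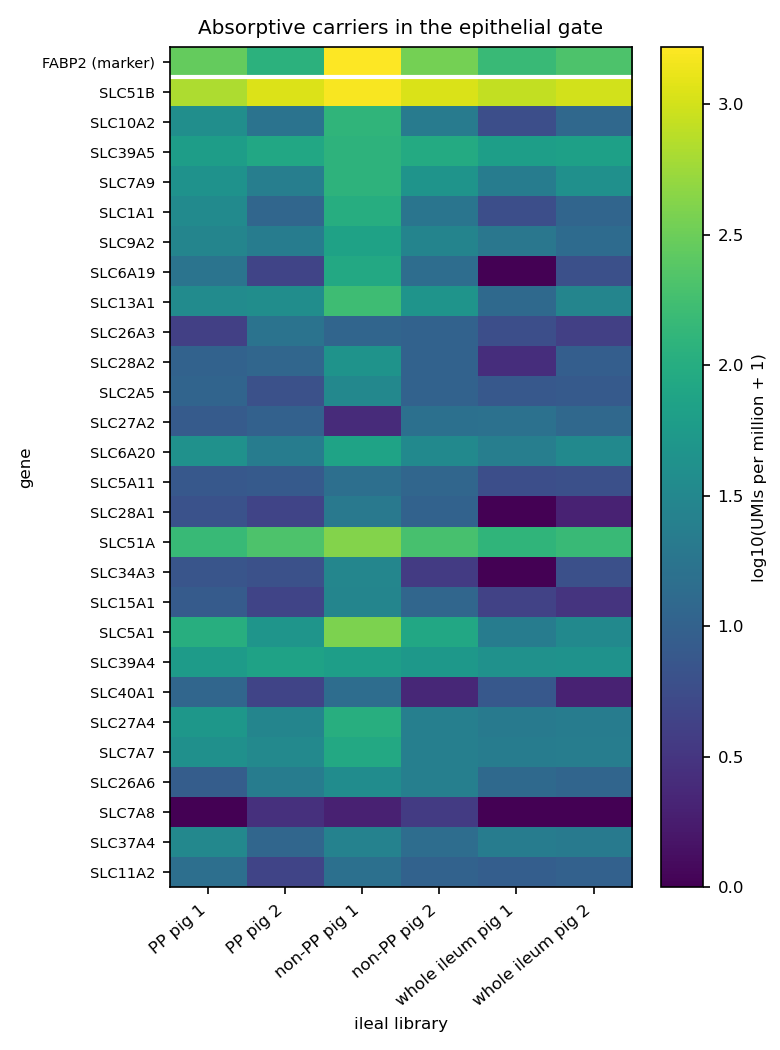
Level in the epithelial gate of each of 6 ileal libraries for FABP2 and 27 absorptive carriers, as log10 of unscaled CPM plus 1, with members ordered by their fitted log2 difference. The non-PP library of pig 1 was the highest for SLC10A2 (126.5 CPM) and for SLC5A1 (386.4), and SLC51B was between 669.7 and 1560 in all 6.

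In the T gate 20 of 192 members were higher (10.4%, against 11.6% of all genes) and 28 were lower (14.6%, against 7.5%). SLC11A2 stood highest above the other gates among those with UMIs in all of them. It was at 101.6 and 98.24 CPM in the T gate, at 12.55 and 6.607 in the epithelial gate, 3.873 and 3.092 in the B gate, 27.98 and 7.438 in the plasma cell gate and 13.99 and 14.31 in the myeloid gate. The T level exceeded every other gate in both pigs, and the log2 difference was 3.41 (SE 0.224, adjusted p = 9.629e-07, edgeR). SLC11A2 was seen in 27.96% of 14247 T cells (27.23% to 28.71%) and in 1.512% of 11638 B cells (1.298% to 1.751%), whose median depth of 2467 to 4116 UMIs per cell over libraries was in the range of, or above, that of T cells. Its place on the reference is an unplaced scaffold.

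Further members higher in T cells were low in level. SLC17A7, a vesicular glutamate transporter (chr6:54511121-54521616), was at 7.437 and 4.376 CPM (at least 2.63 higher on the log2 scale, adjusted p = 0.0004825 by edgeR), SLC4A11, a borate transporter-like protein of the bicarbonate family, at 3.269 and 3.895 (at least 2.59 higher) and SLC36A4, an amino acid transporter, at 6.898 and 9.015 (at least 2.12 higher). SLC37A3, a sugar-phosphate exchanger-like protein, was at 22.2 and 24.16 (log2 difference 1.87), and its locus overlaps RAB19, whose own level was also higher in T cells (39.26 and 43.64 CPM before scaling) than in B cells (8.111 and 7.161). The members lower in T cells were led by SLC37A2, an exchanger of sugar phosphates (0.503 and 0.3063 CPM, log2 difference −4.65), and SLC44A1, a choline transporter (2.694 and 2.932 CPM, −3.90). SLC15A3 fell by 3.85 and SLC17A9 by 3.02. On the list of lymphocyte growth carriers 1 of 12 was higher and 4 were lower. The T counts were 18 and 21 without the whole ileum library of pig 1, and SLC15A2, SLC39A4, SLC38A5 and SLC25A15 were among the calls lost (log2 differences −2.12, −0.85, −0.91 and −1.24; adjusted p = 0.07815, 0.1866, 0.05925 and 0.05057). Without the non-PP library of pig 1 they were 18 and 28. On the libraries of 1 animal they were 6 and 16 without pig 1 and 10 and 18 without pig 2.

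In the B gate 18 members were higher (9.38%, against 15.6% of all genes) and 30 were lower (15.6%, against 11.7%). The split of all calls between higher and lower depended on the scaling, with 57.1% of all called genes higher by TMM and 47% by the size factors of DESeq2, which moved the median of all genes by −0.18. That shift was too small to turn the leading members, so their direction says nothing about the scaling. By the size factors of DESeq2, SLC4A8 (2.35, adjusted p = 0.07214, edgeR) and SLC39A13 (0.99) were not called. SLC15A2 (chr13:138595942-138634473) was at 27.76 and 26.79 CPM in B cells and at 30.32 and 31.24 in plasma cells, whereas it was at 1.365 and 1.269 in T cells, 1.761 and 0 in epithelial cells and 3.497 and 2.045 in myeloid cells (B gate log2 difference 3.02, SE 0.272). Both antibody-lineage gates lay above the other 3 in both pigs. SLC15A2 overlaps EAF2, a transcription elongation factor gene with the same order of gates (347.8 and 352.1 CPM before scaling in B cells, 10.02 and 10.64 in T cells), and how the reads of the pair were divided was not tested.

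Amino acid and choline carriers were next. SLC1A4, a neutral amino acid exchanger (chr3:76938102-76970519), was at 29.78 and 33.3 CPM in B cells (log2 difference 2.70, SE 0.278). SLC15A4, a lysosomal carrier of histidine and small peptides that acts with endosomal Toll-like receptors, was at 35.36 and 38.37 (2.14, SE 0.19). SLC44A1 (chr1:246548461-246760527) was at 76.35 and 77.49 in B cells, close to its 71.97 and 71.95 in epithelial cells, and the B gate was 2.06 above the mean of the others (SE 0.128). SLC29A1, the equilibrative nucleoside transporter (chr7:39217974-39234683), was at 32.32 and 35.93 (1.71, SE 0.225), and SLC41A2, a magnesium transporter, at 26.56 and 31.8 (1.84). Lower in B cells were SLC22A18 (−3.90), SLC11A2 (−2.65), SLC7A11, the cystine-glutamate exchanger (−2.63), and SLC5A1 (−2.59). The counts were 16 and 27 without the whole ileum library of pig 1, and the calls of SLC4A8 (2.46, adjusted p = 0.0642), SLC7A7 (−2.21, 0.0913) and SLC39A13 (1.09, 0.06127) were lost, as were those of SLC29A3 (−1.02, 0.06334) and SLC25A43 (−0.64, 1). Without the non-PP library of pig 1 they were 17 and 33. On the libraries of 1 animal, higher members numbered 13 to 14, and lower ones 19 without pig 2.

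Cycling and resting B cells were set side by side, and 10 of 175 tested members were higher in cycling cells (5.71%, against 11.1% of all genes) and 15 lower (8.57%, against 10.8%). The fit held 12 sums, which include the epithelial, T, plasma cell and myeloid gates. Its SEs and p-values therefore rest in part on other cell types. Some of the 175 may have been tested only because of a gate outside this pair. HMGB2, a chromatin protein of dividing cells that no gate used, was at 3936 and 3895 CPM before scaling in cycling and 351.8 and 346.4 in resting cells. The cycling sums came from deeper cells (median 4185 to 5562 UMIs per cell over libraries, against 1969 to 2862), which CPM levels scale for but shares of cells do not. The median of members was 0.00 as fitted and −0.25 with bounds, against 0.05 for all genes, and the other scaling moved the median of all genes by −0.13 and the share of higher calls among all genes from 50.6% to 42.3%.

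SLC29A1 rose with cycling. It was at 41.96 and 43.43 CPM in cycling and at 10.94 and 8.981 in resting B cells, so that the groups did not overlap, and the log2 difference was 2.08 (SE 0.35, adjusted p = 0.0006184, edgeR). SLC44A1 was at 87.13 and 83.29 against 25.01 and 19.96 (1.91, SE 0.1992, adjusted p = 1.585e-05). SLC1A5, the main sodium-dependent glutamine carrier (chr6:52647432-52661464), was at 27.49 and 34.11 against 10.16 and 15.97 (1.27), and SLC41A2 was at 28.05 and 31.81 against 7.817 and 11.97 (1.63). The other members that were higher were SLC35G1 (3.16), SLC37A3 (1.77), SLC25A14 (1.62), SLC17A5 (1.38), SLC39A6 (1.09) and SLC35A1 (1.07). By the other scaling SLC35G1 (3.03, adjusted p = 0.05303), SLC39A6 (0.96) and SLC35A1 (0.94) were not called.

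Resting B cells were the higher side for carriers of another set. SLC38A2, a neutral amino acid transporter that responds to amino acid shortage (chr5:77113491-77127715), was at 186 and 183.6 CPM in resting against 81.1 and 74.61 in cycling cells (−1.25, SE 0.1811, adjusted p = 0.000208). SLC16A1, a lactate and pyruvate transporter (chr4:107510920-107547609), was at 22.67 and 24.95 in resting and 8.199 and 8.953 in cycling cells (−1.46, SE 0.2347). SLC4A7, a sodium bicarbonate cotransporter (chr13:13933552-14043108), was at 64.88 and 52.89 against 16.16 and 10.98 (−2.13, SE 0.3493), and SLC46A3, a lysosomal carrier, at 48.47 and 50.89 against 11.33 and 15.08 (−1.90). SLC22A17 was at 10.94 and 12.97 in resting and 1.286 and 1.226 in cycling cells (−3.23, SE 0.3878) and SLC7A11 at 5.472 and 4.989 against 0.5627 and 0.1599 (−3.93). With stricter gates the calls of SLC7A11 (−3.23, adjusted p = 0.1155), SLC34A3 (−3.19, 0.07374), SLC25A29 (−2.77, 0.1072), SLC25A36 (−0.70, 0.05641), SLC35G1 (0.1203), SLC37A3 (1.60, 0.1636), SLC25A14 (2.11, 0.1007) and SLC17A5 (1.97, 0.06596) were lost. On the list of lymphocyte growth carriers, 2 of 12 tested members were higher and 2 lower, with a median of 0.21.

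Of 28 tested mitochondrial carriers in the same comparison, 1 was higher in cycling cells, SLC25A14, and 3 were lower, with a median of 0.12. Those 3 were SLC25A36 (−1.01), SLC25A25 (−1.18) and SLC25A29 (−2.37). Leaving out the whole ileum library of pig 1 gave 7 higher and 12 lower members, and SLC35G1 (2.83, adjusted p = 0.1086), SLC25A14 (1.56, 0.08298), SLC17A5 (1.19, 0.06367), SLC25A29 (−2.67, 0.05575) and SLC37A2 (−1.56, 0.05752) were no longer called. Without the non-PP library of pig 1 they were 10 and 15, and SLC25A36 (−0.99) was not called. On the libraries of 1 animal the higher count was 5 without pig 1 and 6 without pig 2, and the lower count was 9 without pig 2.

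**Figure D4:**
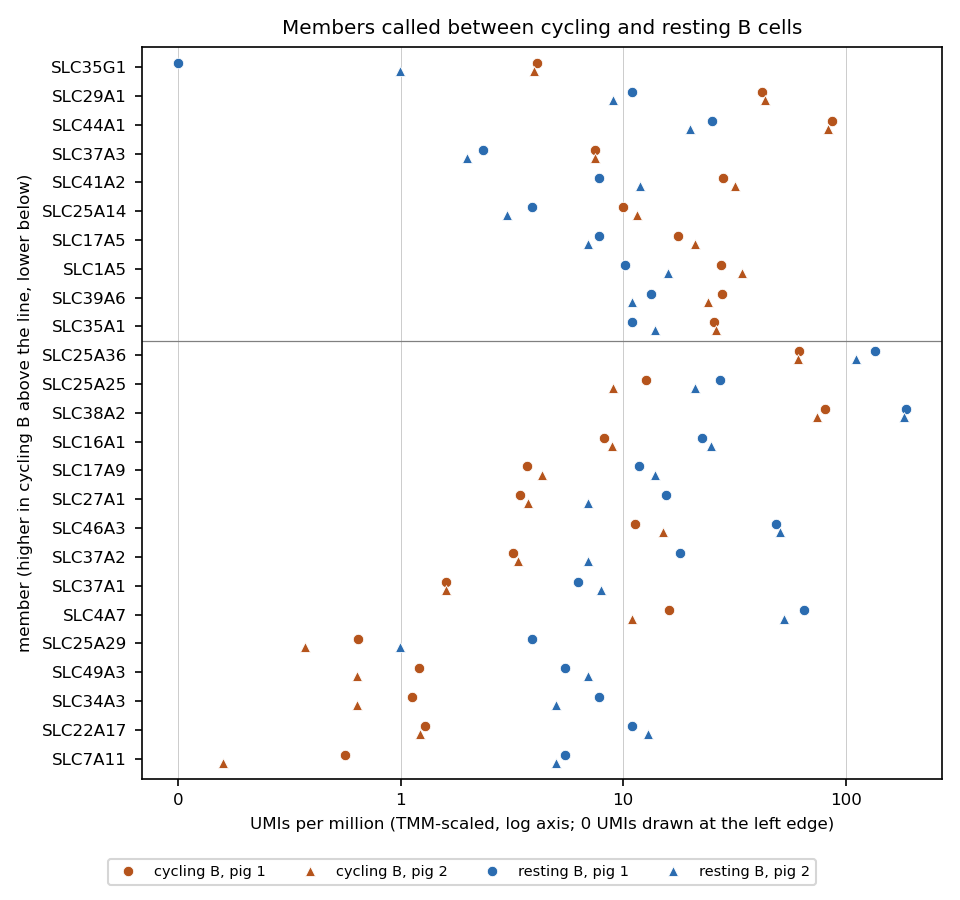
Levels of the 25 members called between cycling and resting B cells, as TMM-scaled CPM on a log axis, with 1 point per pig in each state and values of 0 drawn at the left edge. SLC29A1 was at 41.96 and 43.43 in cycling and 10.94 and 8.981 in resting cells, and SLC38A2 at 81.1 and 74.61 against 186 and 183.6.

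In the plasma cell gate 17 members were higher (8.85%, against 7.15% of all genes) and 5 were lower (2.6%, against 4.68%). SLC17A9, the vesicular nucleotide transporter that loads ATP into secretory vesicles (chr17:62186114-62200091), was at 107.3 and 116 CPM in plasma cells, at 18.71 and 9.911 in epithelial cells, 10.49 and 14.31 in myeloid cells, 4.749 and 5.533 in B cells and 2.156 and 2.276 in T cells. Plasma cells lay above the other 4 gates in both pigs, by 4.05 over their mean (SE 0.229, adjusted p = 4.271e-07, edgeR). SLC17A9 was seen in 38.52% of 244 plasma cells (32.39% to 44.95%) and in 0.7791% of T cells, at median depths of 7095 to 10110 and 2239 to 2818 UMIs per cell over libraries.

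Carriers for amino acids were among the members higher in plasma cells. Of 12 tested carriers of lymphocyte growth, 6 were higher and none was lower, with a median of 1.20, and the other 6 lay between −0.76 and 0.88. SLC7A5 (32.65 and 32.73 CPM, log2 difference 2.34) and SLC3A2 (69.96 and 111.6, 1.74), the chains of the exchanger of large neutral amino acids, were among them. So were SLC1A5 (104.9 and 147.3, 2.02), SLC38A5 (1.52) and SLC16A1 (65.3 and 72.89, 2.65, SE 0.201). SLC1A4, on the same list, was at 34.98 and 59.5 (3.48), and SLC7A11 at 11.66 and 22.31 (2.93). SLC35B1, which exchanges ATP for ADP across the endoplasmic reticulum membrane, was at 207.5 and 249.9 (1.94, SE 0.154), and SLC39A7, which releases zinc from that compartment, at 95.61 and 84.79 (1.51). On the list of secretory pathway carriers 3 of 16 were higher and none was lower (median 0.52, those not called from −1.10 to 1.64). Of 27 absorptive carriers none was called in this gate, where 3 UMIs stood for 2.72 CPM.

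The 5 lower members were SLC38A9, the lysosomal arginine sensor (−3.39), SLC25A24 (−2.53; 4.664 and 5.95 CPM), SLC4A7 (−2.47), SLC37A3 (−1.99) and SLC20A1, a phosphate transporter (−1.42). TMM scaled the plasma cell total over both pigs from 1998166 UMIs to an effective 1101083. DESeq2 did not call SLC38A9 (adjusted p = 0.07168) or SLC37A3 (0.1027). Without the whole ileum library of pig 1 the counts were 17 and 6, with SLC35E3 (1.95, adjusted p = 0.05393) and SLC2A6 (1.15, 0.1631) lost, and without the non-PP library of pig 1 they were 18 and 5. On the libraries of 1 animal there were 12 to 19 higher members, and 1 lower member without pig 2.

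In the ileal myeloid gate 30 members were higher (15.6%, against 13.3% of all genes) and 9 lower (4.69%, against 5.21%). SLC40A1, ferroportin, the exporter of iron (chr15:94140635-94161793), was at 41.96 and 55.21 CPM, at 10.56 and 1.468 in epithelial cells, and at least 5.47 above the mean of the other gates on the log2 scale (adjusted p = 5.397e-05, edgeR). SLC15A3, a lysosomal peptide and histidine carrier, was at 33.22 and 55.21 (5.07, SE 0.397). SLC8A1, a sodium-calcium exchanger (chr3:99823503-100257306), was at 22.73 and 16.36 (at least 4.74 higher), SLC39A8, an importer of zinc and manganese (chr8:118604852-118678115), at 6.994 and 8.179 (at least 3.72 higher) and SLC31A2, a copper transporter, at 12.24 and 20.45 (3.81). SLC7A7, a light chain that exports cationic amino acids, was at 41.96 and 47.03 here and at 56.34 and 21.29 in epithelial cells, which overlap. Of 13 listed myeloid carriers 8 were higher and 1 was lower (median 1.80). The lower one, SLC17A5, a sialic acid exporter of lysosomes, fell by 1.83 and was not called with the animal as a block (adjusted p = 0.06148). SLC51B, at 0 in both pigs, was at least 2.71 lower.

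This gate held 174 cells, and 1 library was enough to change calls. Without the whole ileum library of pig 1, 21 members were higher and 7 lower, and SLC36A1 (2.11, adjusted p = 0.05639), SLC38A9 (1.42, 0.08854) and SLC1A4 (−3.26, 0.05309) were lost. Without the non-PP library of pig 1 they were 25 and 7, and SLC17A5 (−1.69, 0.07603) was lost. On the libraries of 1 animal the higher count was 18 without pig 1 and 15 without pig 2, and the lower count was 4 without pig 2.

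The PBMC libraries, which the choice of members did not use, gave the myeloid comparison again on other cells of the same pigs. Of 189 tested members, 47 were higher in blood myeloid cells than in the mean of blood T and B cells (24.9%, against 15.1% of all genes) and 30 were lower (15.9%, against 15.9%). Of the 30 members higher in ileal myeloid cells, 22 were also higher in blood (73.33% of the 30 and 46.81% of the 47), where 56.7% of 1396 genes higher in the ileal gate were also higher in blood, and 1, SLC22A17, was called in the opposite direction. Of 9 lower in the ileum, 4 were lower in blood (44.44% of the 9 and 13.33% of the 30), against 55.8% of 548 genes. The 2 gates used the same markers. SLC39A8 was at 77.07 and 113.8 CPM in blood myeloid cells (log2 difference 5.04, adjusted p = 1.129e-06, edgeR), SLC2A6, a lysosomal hexose transporter, at 82.48 and 110.1 (4.28), SLC16A3, a lactate exporter, at 86.09 and 120.4 (3.88) and SLC8A1 at 32.9 and 37.8 (5.83). SLC40A1 was at 17.13 and 22.24 (2.45), below its 49.78 to 73.78 CPM in the free RNA (barcodes of 1 to 100 UMIs) of the PBMC libraries, and SLC46A2, one of the members nearest the 50 UMI minimum, at 59.05 and 47.98 (4.64). Of 13 listed myeloid carriers, 8 were higher and 1 lower (median 2.45). With the whole ileum library of pig 1 left out of the shared fit the counts were 45 and 29, without the non-PP library of pig 1 they were 45 and 32, and without pig 2 the lower count was 12.

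T cells were compared between ileum and blood, which also differ in how the cells were isolated, and that cannot be told apart from the tissue. Of 189 members, 24 were higher in ileal T cells (12.7%, against 8.06% of all genes) and 10 lower (5.29%, against 6.08%). SLC11A2 was at 118.2 and 110.1 CPM in ileal and 20.14 and 21.83 in blood T cells (2.44, SE 0.142, adjusted p = 5.529e-06). SLC17A7 was at 8.651 and 4.902 against 0.2166 and 0.4425 (4.32, SE 0.515), and SLC36A4 was also higher (1.60). The ileal and blood values of these genes did not overlap.

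Enterocyte carriers appeared on the same side. SLC51B was at 13 and 4.118 CPM in ileal T cells and at 0 in blood T cells (at least 6.35 higher on the log2 scale), SLC51A at least 4.57 higher, SLC6A19 at least 3.50 higher and SLC5A1 1.74 higher. In all, 6 of 16 tested absorptive carriers were called higher, and SLC11A2 is 1 of these 6. SLC40A1, also on that list, was called lower. DESeq2 did not call SLC51B (adjusted p = 0.1884), SLC6A19 (0.09661) or SLC6A20 (0.06905). Barcodes with 1 to 100 UMIs, taken as free RNA, showed which genes the suspension held outside cells. For SLC51B the free RNA had 57.53 CPM before scaling at its lowest library, 98.72 at the median and 734.3 at its highest over the 6 ileal libraries, and the T gate had 2.597, 3.997 and 27.14. The T gate lay below the free RNA in every ileal library for SLC51B, SLC51A, SLC5A1, SLC6A19, SLC6A8, SLC6A20 and SLC22A23. For SLC11A2 the free RNA was at 35.4, 44.73 and 78.79 and the T gate at 82.16, 111.8 and 138.3. The T gate lay above the free RNA in all 6 libraries for SLC11A2, SLC17A7 and SLC36A4, and in 3 of 6 for SLC4A11, which was 2.40 higher in ileal than in blood T cells. The 7 epithelial markers summed to 66.22 and 25.96 CPM before scaling in ileal and 2.312 and 2.03 in blood T cells, where 3 of the 7 were at 0. The part of free RNA in each difference was not tested.

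**Figure D5:**
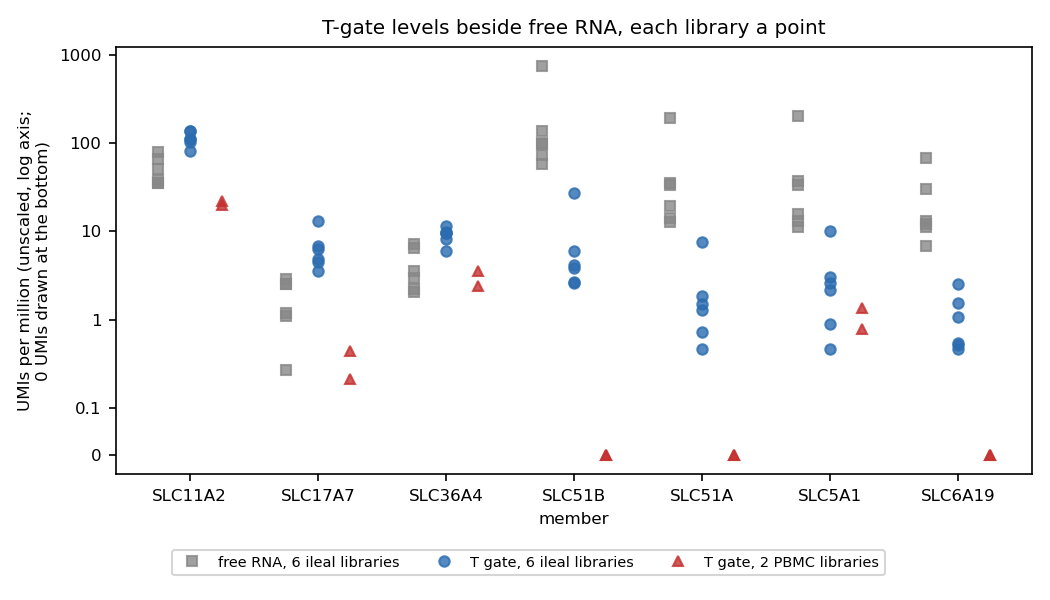
Levels of 7 members in free RNA (barcodes of 1 to 100 UMIs) and in the T gate of the 6 ileal libraries, beside the T gate of the 2 PBMC libraries, as unscaled CPM on a log axis with 1 point per library. SLC51B was at 57.53 to 734.3 in free RNA and 2.597 to 27.14 in ileal T cells, whereas SLC11A2 was at 35.4 to 78.79 in free RNA and 82.16 to 138.3 in ileal T cells.

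The carriers higher in blood T cells included SLC40A1 (−4.63) and SLC39A8 (−3.57), both also called higher in blood myeloid cells. SLC46A2, SLC15A3 and SLC16A3 were likewise called higher in both blood T and blood myeloid cells. SLC6A3 and SLC1A4, also higher in blood T cells, were called lower in blood myeloid cells. With doublets removed SLC15A3 was not called between ileal and blood T cells (−1.37, adjusted p = 0.1509, edgeR). In the free RNA of the PBMC libraries SLC40A1 was at 49.78 to 73.78 CPM and SLC39A8 at 3.481 to 20.74, against at most 3.468 and 1.278 in that of the ileal libraries. The myeloid markers summed to 1730 and 2002 CPM before scaling in ileal T cells and to 1144 and 1439 in blood T cells, and FTL, a ferritin chain found in every gate, held 1315 and 1528 of the ileal sums. SLC16A3 was at 20.94 and 21.32 CPM in blood and 6.854 and 3.432 in ileal T cells (−2.03), SLC1A4 at 14.44 and 13.5 against 4.012 and 6.03 (−1.48), and SLC39A10, a zinc importer, at 51.04 and 55.61 against 27.58 and 24.46 (−1.03). Without the whole ileum library of pig 1 the counts were 18 and 8, and SLC6A3 (−1.54, adjusted p = 0.0694) and SLC25A29 (1.35, 0.06843) were lost. Without the non-PP library of pig 1 they were 21 and 10, and SLC5A1 (0.83, adjusted p = 0.1846) and SLC22A23 (2.49, 0.05722) were lost. On the libraries of 1 animal the higher count was 11 without pig 1 and 6 without pig 2, and the lower count was 4 without pig 2.

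Between PP and non-PP T cells no member of 158 was called by edgeR in either direction, against 1.51% of all genes higher and 0.74% lower in PP. At an unadjusted p under 0.05 there were 25 members, 7 higher and 18 lower in PP. The share of all genes at that limit is not given here, so this count is no result about the members. Both dissections came from the same pigs, and edgeR with the animal as a block called SLC16A3 higher in PP (1.81, adjusted p = 0.00805) and SLC51B (−2.12, 0.02251) and SLC51A (−2.0, 0.03999) lower. DESeq2 called SLC51B lower (−2.27, 0.03433), and with no filter on low counts edgeR called 2 higher and 5 lower. SLC16A3 was higher (2.53, 0.03117) and SLC12A7 lower (−1.32, 0.04275) without the non-PP library of pig 1. Without that of pig 2, SLC51B, SLC51A and SLC5A1 were lower (−2.99, −2.73 and −2.08). Without a block, SLC37A3 (log2 difference −0.66, adjusted p = 0.0518 by edgeR) missed both limits of a call. In the same fit SLC16A3 was at 12.16 and 7.315 CPM in PP and at 3.978 and 1.681 in non-PP T cells (1.80, adjusted p = 0.1206). Of 12 tested absorptive carriers none was called, with a median of −0.86, on the side of the non-PP dissection, whose library of pig 1 also had the highest epithelial FABP2. SLC51B and SLC51A lay below the free RNA in the T gate of every ileal library.

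Over all 5 ileal gates, 149 of the 212 members had the same highest gate in both pigs and 63 did not. Those 149 were 76 in the epithelial gate (35.85% of members), 26 in the myeloid gate, 20 in the plasma cell gate, 19 in the B gate and 8 in the T gate. This is a description, since the smaller gates reach a highest value by counting error more easily. The same count was not made over all genes. Of all genes tested, 23.8% were called higher in the epithelial gate, the largest such share among the 5 gates. In the reference annotation 206 members had a single placed entry, and 70 of these overlapped another gene, 53 of them a protein-coding one. Besides SLC15A2 with EAF2 and SLC37A3 with RAB19, protein-coding neighbours of members described above included TDRD12 for SLC7A9, ANKRD52 for SLC39A5, ANO4 for SLC5A8, SACM1L for SLC6A20, DEUP1 for SLC36A4, TMEM218 for SLC37A2, DNAH7 for SLC39A10, ELP2 for SLC39A6, AKAP17B for SLC25A43, LRIG2 for SLC16A1, TMEM132A for SLC15A3, OXA1L for SLC7A7, PLPP1 for SLC38A9, and ADAMTS13 and CACFD1 for SLC2A6. SLC51B overlaps RASL12, which was at 0.9377 and 2.16 CPM before scaling in epithelial cells. The part of these neighbours in the values was not tested.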

How the data were processed

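The authors deposited raw count matrices (UMI counts per gene and barcode, over all barcodes and before their removal of ambient RNA) for each of 8 libraries prepared with 10x v2 chemistry, made with Cell Ranger 4.0.6 per the submitters' processing notes. The 4 sequencing runs of a library were 1 replicate. Cells with at least 1250 UMIs, at least 550 genes and at most 12.5% mitochondrial UMIs were kept, and doublets were scored (scanpy 1.11.5) and removed only as an alternative (2.72% to 3.82% of cells above a score of 0.25).

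Gates used raw UMIs per cell. Epithelial cells had EPCAM and KRT8 at 2 or more UMIs each. T cells had 3 or more over CD3D, CD3E and CD3G, with no CD79A, MS4A1 or EPCAM and JCHAIN under 2% of UMIs. B cells had 3 or more over CD79A, CD79B and MS4A1, with no CD3 or EPCAM and JCHAIN under 0.5%. Plasma cells had JCHAIN at 2% or more with no CD3 or EPCAM. Myeloid cells had 3 or more UMIs from at least 2 of AIF1, CSF1R, C1QA, C1QB, C1QC, CD14, CD68, FLT3 and LYZ, and TYROBP plus FCER1G at 2 or more. Cycling B cells had 5 or more UMIs over 7 cycling genes, and resting B cells had none of these and 2 or more over a set of resting markers that included CCR7, KLF2 and FCER2. Some genes of the gates and marker lists are not reported here.

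Counts were summed per pig and gate and tested with edgeR 4.0.16 (R 4.3.3, filterByExpr, TMM, glmQLFit and glmQLFTest) over all genes, with DESeq2 1.42.0, other scaling, no filter, stricter gates, sums per library of at least 10 cells and left-out replicates or libraries as alternatives. PP and non-PP T cells were tested on sums per library. The same 2 animals gave every group, so the labels pair the samples by animal, and the block was an alternative fit. The test was tried on simulated data. Intervals are exact (Clopper-Pearson, 95%) and, like floors of 3 UMIs, cover counting error only. Per comparison, called members that moved the same way in both pigs were named, up to 12 higher and 6 lower, with called members of the lists. The members, lists and tests were chosen with earlier results of these data known. The lists overlap, and SLC40A1 is on the absorptive and the myeloid list. Coordinates are from RefSeq (Sscrofa11.1), matched by symbol for 210 members. Promoter motifs were not analysed here. Cell types named by the authors were not used here.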

Additional observations from a re-analysis of the deposited data

Results flagged for a closer look

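For the 15 leading values tested over the 6 ileal libraries, 5 had 1 library apart from the rest by Dixon's test, which chance gives for about 1 value in 20. All 5 were in the non-PP library of pig 1. In its epithelial gate SLC51B was at 1966, SLC4A4 at 189.3 and SLC10A2 at 159.4 CPM after TMM scaling over libraries, in each case above the other 5 libraries. In its T gate SLC17A7 was at 13.72 CPM, the highest of the 6. In its B gate SLC25A53 was at 11.44 CPM, on 16 cells with a median of 2467 UMIs. That level rests on few molecules, so this value says little about the library.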

How the results depend on the processing

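Over 267 named values and 2770 alternative values of them, 2768 kept their direction, 2546 kept their call and 222 lost it. The leading named values were chosen because they were called and moved the same way in both pigs. A kept direction was therefore partly fixed in advance. Values that an alternative did not test are left out of these counts. Of the 267, 212 were computed without pig 1, 233 without pig 2 and 207 on sums per library. The 2 that turned were SLC46A3 in the epithelial gate (−0.073 without pig 1, 1.594 without pig 2) and SLC39A13 in the T gate (−1.236 without pig 1, 0.698 without pig 2). Sums per library called fewer members higher in the epithelial (57), T (7) and B (11) gates, where fewer members were tested. DESeq2 called 51 lower in T, 77 lower in B, 3 lower in plasma and 5 lower in myeloid cells, and 1 lower in PP T cells. With no filter on low counts 8 were lower in plasma cells, and 2 were higher and 5 lower in PP T cells. The causes were not tested. With the animal as a replicate block, 1 was higher and 2 were lower in PP T cells, the calls of SLC4A8 in B cells (2.49, adjusted p = 0.05266) and SLC17A5 in myeloid cells (−1.83, adjusted p = 0.06148) were lost by edgeR, and every other named call was kept; the counts were 94 and 21 for the epithelial, 22 and 31 for the T, 18 and 33 for the B, 17 and 6 for the plasma cell and 28 and 9 for the myeloid gate, 10 and 16 for cycling B cells, 26 and 10 for ileal against blood T cells and 47 and 31 for blood myeloid cells. Leaving out 1 pig gave 54 to 78 higher and 12 to 15 lower members in the epithelial gate, 6 to 10 and 16 to 18 in the T gate, 13 to 14 and 19 to 21 in the B gate, 12 to 19 and 1 to 4 in the plasma cell gate, 15 to 18 and 4 to 8 in the myeloid gate, 5 to 6 and 9 to 13 in cycling B cells, 6 to 11 and 4 to 9 in ileal against blood T cells and 39 to 47 and 12 to 26 in blood myeloid cells. In PP against non-PP T cells, 0 to 1 were higher and 0 to 3 lower when 1 library was left out. The share of all genes called is given for none of these alternative fits, so their counts are no result about the members. Leaving out the non-PP library of pig 1 was chosen after seeing the data and lost 17 of 256 named calls, and leaving out the whole ileum library of pig 1 lost 28 of 264, while stricter gates lost 13 of 263 and DESeq2 15 of 267. A minimum of 25 UMIs gave 223 members and one of 100 gave 192. Depth limits the plasma cell and myeloid gates, where 3 UMIs stood for 2.72 and 2.83 CPM.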

Other observations

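The ileal T gate was divided after its values had been seen, by CD4, CD8B and TRDC UMIs, and is described with no test. SLC11A2 was at 44.4 CPM (counts per 1e6 UMIs, unscaled) at its lowest, 72.69 at the median and 120.5 at its highest over the 6 libraries in 815 CD4 cells, at 71.3, 98.9 and 109.5 in 2471 CD8B cells and at 111.1, 145.3 and 151.5 in 4017 TRDC cells, which are γδ T cells by that transcript. The range of CD4 cells overlapped with that of CD8B cells and with that of TRDC cells. The 3 subsets were above the 16.58 to 27.59 of the blood subsets. A further 6606 ileal T cells had no UMI of CD4, CD8B or TRDC and are not described here. SLC17A7 had 3 UMIs in CD4 cells over the 6 libraries and was at 7.084, 10.67 and 17.06 in CD8B and 2.654, 4.727 and 12.39 in TRDC cells, against 0 to 1.085 in blood CD8B cells. SLC36A4 was at 0, 1.911 and 4.947 in CD4, 4.133, 8.177 and 14.06 in CD8B and 5.431, 12.64 and 15.58 in TRDC cells.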
